A study of Mus musculus with 24 samples.

Results

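The annexins are a family of calcium-dependent membrane-binding proteins, and 8 members were followed here: Anxa1 (ENSMUSG00000024659), Anxa2 (ENSMUSG00000032231), Anxa3 (ENSMUSG00000029484), Anxa4 (ENSMUSG00000029994), Anxa5 (ENSMUSG00000027712), Anxa6 (ENSMUSG00000018340), Anxa7 (ENSMUSG00000021814) and Anxa11 (ENSMUSG00000021866). They were chosen by gene symbol and are 8 of 28450 features in the deposited table. RNA was sequenced from whole kidneys of C57BL/6 mice in a model of calcium oxalate nephrocalcinosis. There were 4 groups of 6 libraries: Nlrp3 knockout mice (genotype NLPR3-/- in the labels) given glyoxylate, knockout mice given saline, wild-type mice given glyoxylate and wild-type mice given saline, called Gly KO, saline KO, Gly WT and saline WT below. Glyoxylate is an oxalate precursor, dosed at 75 mg/kg daily. Glyoxylate or saline went into the peritoneum in 200 µl for 7 days, after which the kidneys were taken. The labels used here give no age, sex or origin of the knockout allele. Each library is bulk kidney RNA, so fewer cells of a type and less RNA per cell cannot be told apart in any value below.

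Annexins share a core that binds acidic phospholipids when calcium rises, and they differ in the N-terminal tail, which carries the binding sites for S100 proteins and other partners. They act in membrane repair, vesicle traffic, anti-inflammatory signalling and the uptake of dying cells. In the kidney, annexin A1 and annexin A2 have been described at the tubule cell surface as proteins to which calcium oxalate crystals attach, and annexin A5 is widely used as a probe for exposed phosphatidylserine.

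RefSeq promoter windows on GRCm38.p6, each running from 250 bases before to 50 bases after a transcript start, were matched by symbol for 6 of the 8 members, all but Anxa3 and Anxa6. The windows of Anxa1, Anxa2 and Anxa5 are shown because, in both genotypes, these genes were higher in every Gly library than in any saline library, and that of Anxa11 because it passed the test in no comparison as deposited. Each is written 5′ to 3′ on the gene's strand, with the last 50 bases in the first exon. Anxa1 spans chr19:20390622-20390921 (minus strand), Anxa2 spans chr9:69453433-69453732 (plus strand), Anxa5 spans chr3:36475838-36476137 (minus strand) and Anxa11 spans chr14:25841905-25842204 (plus strand). Capitals mark matches, on either strand, to the letters of AP-1 (TGANTCA), STAT (TTCNNNGAA), the GC box (GGGCGG), the TATA box (TATAAA), the CCAAT box (CCAAT) and CRE (TGACGTCA), or to the NF-kB consensus or the CArG box.
Anxa1: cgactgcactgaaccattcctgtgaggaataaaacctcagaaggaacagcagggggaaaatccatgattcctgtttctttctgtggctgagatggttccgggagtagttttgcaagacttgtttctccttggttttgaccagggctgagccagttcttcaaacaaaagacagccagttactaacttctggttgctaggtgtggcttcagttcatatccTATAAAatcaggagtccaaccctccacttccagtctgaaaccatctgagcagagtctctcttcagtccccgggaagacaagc
Anxa2: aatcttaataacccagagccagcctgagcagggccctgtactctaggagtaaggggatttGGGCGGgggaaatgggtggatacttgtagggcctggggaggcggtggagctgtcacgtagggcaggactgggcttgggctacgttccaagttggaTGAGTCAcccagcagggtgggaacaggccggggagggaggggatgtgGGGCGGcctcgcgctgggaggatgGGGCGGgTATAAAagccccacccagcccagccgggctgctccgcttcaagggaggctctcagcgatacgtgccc
Anxa5: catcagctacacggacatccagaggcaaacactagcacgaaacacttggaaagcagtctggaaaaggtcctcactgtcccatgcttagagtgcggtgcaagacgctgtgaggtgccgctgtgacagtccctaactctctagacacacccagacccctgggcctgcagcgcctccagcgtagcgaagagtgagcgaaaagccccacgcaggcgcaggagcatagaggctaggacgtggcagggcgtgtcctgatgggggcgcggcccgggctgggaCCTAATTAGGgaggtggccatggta
Anxa11: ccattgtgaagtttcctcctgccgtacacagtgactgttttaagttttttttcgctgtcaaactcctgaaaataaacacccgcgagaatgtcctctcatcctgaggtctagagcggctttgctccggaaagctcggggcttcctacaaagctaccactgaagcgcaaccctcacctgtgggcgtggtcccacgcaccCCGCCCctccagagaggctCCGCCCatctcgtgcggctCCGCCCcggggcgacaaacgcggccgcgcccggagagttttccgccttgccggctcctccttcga
The Anxa2 window held 1 AP-1 match starting 95 bases before the start, a TATA box starting 17 bases before it and 3 GC boxes. The Anxa1 window held 1 TATA box, starting 32 bases before the start, the Anxa5 window 1 CArG box, starting at base 26 of the transcript, and the Anxa11 window 3 GC boxes. Of the windows not printed, 1 of the 2 of Anxa4 held 1 NF-kB match and 1 GC box, and the other held no match. Both windows of Anxa7 held GC boxes. Among 32851 promoter windows of the same length, 7.81% held an AP-1 match, 13.6% a TATA box, 35.7% a GC box, 1.63% a CArG box, 8.3% a STAT match, 8.46% an NF-kB match, 37.4% a CCAAT box and 1.79% a CRE. No matches overlapped in the printed windows. The Anxa1 window had 47.3% G and C bases and 3 CpG sites, against 63.7% and 13 for Anxa2, 60.3% and 16 for Anxa5 and 59.7% and 25 for Anxa11. The median over all windows was 52.7% and 7 sites. These matches describe the letters of the windows and do not show binding of a factor.

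Expression was analysed as the deposited FPKM, that is, fragment numbers corrected for transcript length and for the size of the library. They summed to between 439749 and 539018 per library, and the sequencing depth is unknown. The targeted gene Nlrp3 lay between 0.119 and 0.144 FPKM in Gly KO, against 0.361 to 0.896 FPKM in Gly WT. It lay between 0 and 0.182 FPKM in saline KO and between 0.0397 and 0.0886 FPKM in saline WT, too low to check the knockout labels under saline. Saline KO libraries 1, 2, 3, 5 and 6 had Y-linked transcripts at or near 0 (at most 0.0503 FPKM), whereas saline KO library 4 and the other 18 libraries expressed Ddx3y at 5.14 FPKM or more. Genotype under saline, and Gly within the knockout, therefore cannot be told apart from this difference, and the annexin results that rest on saline KO are also given without those 5 libraries, with library 4 as the 1 saline KO sample. Ribosomal protein genes took 9.49% of the FPKM sum in Gly WT library 1 and 6.11% in library 5, against 5.12% to 5.36% in the other 4 Gly WT libraries. That share averaged 4.33% in Gly KO, 2.93% in saline KO, 6.09% in Gly WT and 2.70% in saline WT. Mitochondrial genes took 23.9% in Gly KO, 30.6% in saline KO, 19.5% in Gly WT (13.5% in library 1) and 29.6% in saline WT. The part of these shares in the annexin differences was not tested. Tests used limma on log2(FPKM + 1) over 13020 features, all 8 annexins among them, with Benjamini-Hochberg adjusted p under 0.05 called. Differences are on that log2 scale, which understates changes of genes with low FPKM.

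Wild-type kidneys given Gly had higher annexin FPKM, a level relative to the rest of the library, than wild-type kidneys given saline. Summed over the 8 genes, Gly WT held 534 ± 68.1 FPKM and saline WT 203 ± 4.57 FPKM (SD, n = 6 each). Called higher were 7 of 8 genes, where 50.2% of all tested features were called higher and 13.3% lower. For the same 7 genes every Gly WT library lay above every saline WT library, which held for 31.3% of features. The median difference of the 8 genes was 1.36 log2 units, and that of all tested features was 0.26.

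Anxa3, a small annexin of epithelial and myeloid cells, had the largest difference of the 8. It ranged from 38.1 to 71.8 FPKM (median 45.6) in Gly WT libraries and from 4.12 to 4.68 FPKM (median 4.37) in saline WT libraries. The groups were far apart, with library 1 the highest of Gly WT. The log2 difference was 3.16 ± 0.16 (SE, limma adjusted p = 7.51e-14), the 35th highest of 13020. Anxa2, which pairs with S100A10 at the plasma membrane and binds plasminogen there, ranged from 97.6 to 165 FPKM (median 119) in Gly WT and from 21.0 to 29.7 FPKM (median 26.6) in saline WT. All Gly WT libraries exceeded all saline WT libraries, with a log2 difference of 2.19 ± 0.13 (SE, adjusted p = 1.07e-12). Anxa5, the phosphatidylserine binder, ranged from 141 to 191 FPKM (median 165) in Gly WT and from 40.8 to 51.9 FPKM (median 44.5) in saline WT. Its groups did not overlap and the log2 difference was 1.85 ± 0.09 (SE, adjusted p = 5.82e-14).

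Anxa1, a glucocorticoid-induced protein that acts on formyl peptide receptors, was the least abundant member under Gly. It lay between 8.44 and 18.1 FPKM (median 14.7) in Gly WT and between 3.63 and 5.83 FPKM (median 4.88) in saline WT, without overlap and with a log2 difference of 1.40 ± 0.15 (SE, adjusted p = 2.06e-08). Anxa6, the member with a duplicated core, lay between 33.7 and 51.1 FPKM (median 44.7) in Gly WT and between 15.5 and 18.3 FPKM (median 16.4) in saline WT. Anxa6 was higher in every Gly WT library, by 1.33 ± 0.12 log2 units (SE, adjusted p = 1.78e-09). Anxa4, an epithelial annexin of secretory and resorptive membranes, lay between 38.8 and 64.6 FPKM (median 55.7) in Gly WT and between 26.4 and 32.6 FPKM (median 31.2) in saline WT. It too rose without overlap, by 0.80 ± 0.11 log2 units (SE, adjusted p = 5.60e-07).

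The remaining 2 members have long N-terminal tails. Anxa7 (synexin, known for calcium-dependent membrane fusion) lay between 52.1 and 61.8 FPKM (median 57.6) in Gly WT and between 42.7 and 49.6 FPKM (median 47.0) in saline WT. The ranges did not overlap, but the difference of 0.31 ± 0.07 log2 units (SE, adjusted p = 0.000779) was close to the median of all features, and it was -0.0043 (adjusted p = 0.970) after median-ratio scaling and 0.12 (adjusted p = 0.137) after quantile normalization. Anxa11, which tethers RNA granules to lysosomes in neurons, lay between 15.5 and 35.5 FPKM (median 25.4) in Gly WT and between 23.4 and 34.3 FPKM (median 28.2) in saline WT. The groups overlapped, with Gly WT libraries 1 and 5 the lowest, and the difference of -0.24 ± 0.15 log2 units (SE, adjusted p = 0.181) did not pass the test. Anxa11 was called lower after median-ratio scaling (-0.54, adjusted p = 0.00109), after quantile normalization (-0.49, adjusted p = 0.00602) and without Gly WT library 6 (-0.35, adjusted p = 0.0396). Without Gly WT libraries 1 and 5 its difference was 0.028 (adjusted p = 0.848). Of all features, 6537 were called higher and 1728 lower as deposited. With median-ratio scaling the split was 3802 higher and 3652 lower, and with quantile normalization 3674 higher and 4103 lower. The other 6 genes stayed called higher under both scalings, between 0.49 and 2.88 log2 units.

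**Figure D1:**
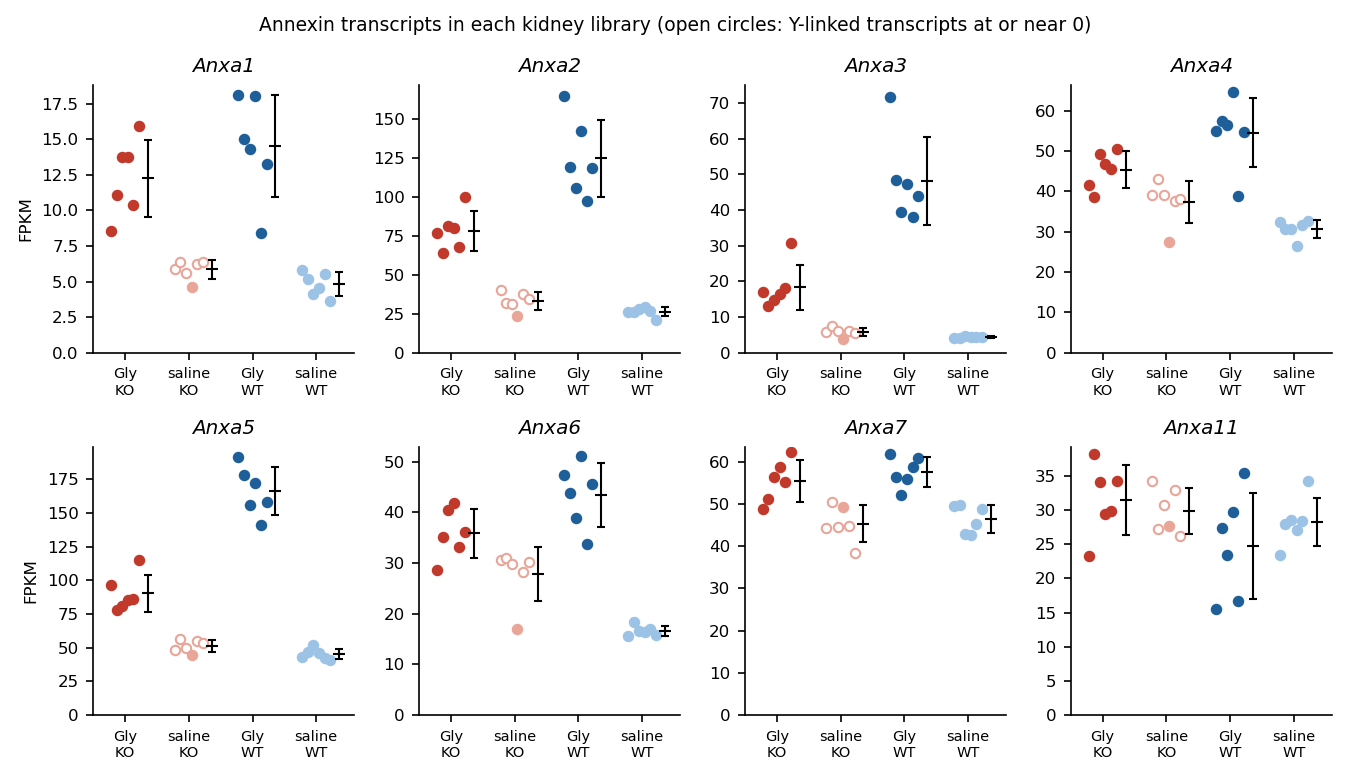
FPKM (y axes, from 0) of each annexin gene in the 6 libraries of Gly KO, saline KO, Gly WT and saline WT, with open circles for the 5 saline KO libraries whose Y-linked transcripts were at or near 0 and black bars for the mean and SD. Anxa3 reaches 71.8 FPKM in Gly WT and at most 30.8 FPKM in Gly KO, while the Anxa11 ranges of all 4 groups overlap.

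Knockout kidneys given Gly also had higher annexin FPKM than knockout kidneys given saline. The 8 genes summed to 367 ± 41.8 FPKM in Gly KO and to 237 ± 20.6 FPKM in saline KO (SD, n = 6 each). Again 7 of 8 genes were called higher, where 23.7% of features were called higher and 5.72% lower. Only 4 genes, Anxa1, Anxa2, Anxa3 and Anxa5, had Gly KO and saline KO ranges that did not overlap, which held in that direction for 15.5% of features. The median difference was 0.59 log2 units for the 8 genes and 0.12 for all features.

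Anxa3 lay between 13.2 and 30.8 FPKM (median 16.8) in Gly KO and between 3.85 and 7.46 FPKM (median 5.99) in saline KO. Anxa2 lay between 64.0 and 99.9 FPKM (median 78.2) in Gly KO and between 23.5 and 40.1 FPKM (median 33.3) in saline KO. For both genes Gly KO library 6 was the highest and saline KO library 4 the lowest, and the groups stood apart by 1.47 ± 0.16 log2 units for Anxa3 (SE, adjusted p = 2.67e-07) and 1.22 ± 0.13 for Anxa2 (SE, adjusted p = 2.46e-07). Anxa5 lay between 77.7 and 115 FPKM (median 85.9) in Gly KO and between 44.5 and 56.2 FPKM (median 51.6) in saline KO. Anxa1 lay between 8.58 and 15.9 FPKM (median 12.4) in Gly KO and between 4.64 and 6.40 FPKM (median 6.06) in saline KO. Both were higher in all Gly KO libraries, Anxa5 by 0.80 ± 0.09 log2 units (SE, adjusted p = 5.87e-07) and Anxa1 by 0.93 ± 0.15 (SE, adjusted p = 4.61e-05).

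The other calls in the knockout were small. Anxa6 lay between 28.6 and 41.9 FPKM (median 35.6) in Gly KO and between 16.9 and 31.1 FPKM (median 30.0) in saline KO. Anxa4 lay between 38.7 and 50.5 FPKM (median 46.3) in Gly KO and between 27.4 and 43.1 FPKM (median 38.6) in saline KO. Anxa7 lay between 48.8 and 62.4 FPKM (median 55.8) in Gly KO and between 38.3 and 50.6 FPKM (median 44.8) in saline KO. All 3 overlapped between groups, and their log2 differences were 0.37 for Anxa6 (adjusted p = 0.0244), 0.28 for Anxa4 (adjusted p = 0.0468) and 0.28 for Anxa7 (adjusted p = 0.00471). All 3 calls were lost under median-ratio scaling and under quantile normalization. The Anxa4 call was lost without any 1 of Gly KO libraries 3, 4, 5 and 6 or saline KO libraries 1, 3, 4, 5 and 6, with adjusted p between 0.0553 and 0.134. The Anxa6 call was lost without Gly KO library 3 (adjusted p = 0.0563), Gly KO library 4 (0.0609) or saline KO library 4 (0.0613). Anxa11 lay between 23.2 and 38.1 FPKM (median 31.9) in Gly KO and between 26.1 and 34.3 FPKM (median 29.2) in saline KO. Its difference was 0.06 log2 units (adjusted p = 0.790), with -0.087 after median-ratio scaling and -0.072 after quantile normalization.

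The lowest saline KO library for Anxa1 to Anxa6 was library 4, the saline KO library that expressed Y-linked genes. The fit with library 4 alone as the saline KO sample assumed that it varied like the other groups. The differences were then 1.95 log2 units for Anxa3, 1.68 for Anxa2 and 1.21 for Anxa1. They were 1.03 for Anxa6, 0.99 for Anxa5 and 0.70 for Anxa4. Each was more than with all 6 libraries, which follows from library 4 being the lowest for these genes. Anxa7 differed by 0.16, less than the 0.28 with all 6 libraries, and its call was lost. Anxa11 differed by 0.16. Of all features, 3092 were called higher and 745 lower as deposited. With median-ratio scaling the split was 1593 higher and 1600 lower, and with quantile normalization 1699 higher and 1892 lower.

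Knockout and wild-type kidneys were then compared under Gly, where every library expressed Y-linked genes. Called lower in Gly KO were 3 of 8 annexins, Anxa3, Anxa5 and Anxa2, where 21.4% of features were called lower and 8.37% higher. Anxa3 averaged 18.4 ± 6.30 FPKM in Gly KO and 48.2 ± 12.3 FPKM in Gly WT, and Anxa5 90.4 ± 13.8 FPKM in Gly KO and 166 ± 17.9 FPKM in Gly WT (SD, n = 6 each). These 2 genes were lower in every Gly KO library than in any Gly WT library, which held for 6.3% of features. Anxa2 averaged 78.2 ± 12.7 FPKM in Gly KO and 125 ± 24.8 FPKM in Gly WT (SD, n = 6 each). Its ranges met, with Gly KO library 6 at 99.9 FPKM above Gly WT library 5 at 97.6 FPKM. The log2 differences were -1.36 ± 0.16 for Anxa3 (SE, adjusted p = 2.96e-06), -0.88 ± 0.09 for Anxa5 (SE, adjusted p = 7.68e-07) and -0.66 ± 0.13 for Anxa2 (SE, adjusted p = 0.000590). As ratios of mean FPKM these were 0.382, 0.544 and 0.627. The Anxa3 difference was the 35th lowest of 13020.

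The other 5 genes did not pass the test, and their ranges overlapped. Anxa1 averaged 12.3 ± 2.70 FPKM in Gly KO and 14.5 ± 3.58 FPKM in Gly WT (SD, n = 6 each). Its difference was -0.22 log2 units, with a 95% interval of -0.53 to 0.09. Anxa4 averaged 45.4 ± 4.52 FPKM in Gly KO and 54.5 ± 8.51 FPKM in Gly WT (difference -0.25, adjusted p = 0.0778). Anxa6 averaged 35.9 ± 4.87 FPKM in Gly KO and 43.4 ± 6.24 FPKM in Gly WT (difference -0.27, adjusted p = 0.102). All 3 were called lower without Gly WT library 5, the lowest Gly WT library for Anxa1 to Anxa6, at -0.35 for Anxa1 (adjusted p = 0.0398), -0.34 for Anxa4 (0.00702) and -0.34 for Anxa6 (0.0375). Anxa7 averaged 55.4 ± 4.96 FPKM in Gly KO and 57.7 ± 3.59 FPKM in Gly WT. The Anxa7 difference was -0.06, with a 95% interval of -0.21 to 0.09, and 0.0080 after median-ratio scaling and 0.0065 after quantile normalization. Anxa11 averaged 31.5 ± 5.18 FPKM in Gly KO and 24.7 ± 7.72 FPKM in Gly WT (difference 0.38, adjusted p = 0.0637). It was called higher after median-ratio scaling (0.44, adjusted p = 0.0143) and quantile normalization (0.45, adjusted p = 0.0207), and without Gly KO library 1 (0.46, adjusted p = 0.0266), Gly WT library 4 (0.44, adjusted p = 0.0396) or Gly WT library 6 (0.49, adjusted p = 0.0136). Without Gly WT libraries 1 and 5 the Anxa11 difference was 0.11 (adjusted p = 0.483). Of all features, 1090 were called higher and 2792 lower as deposited. With median-ratio scaling the split was 1738 higher and 1991 lower, and with quantile normalization 2032 higher and 2236 lower.

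**Figure D2:**
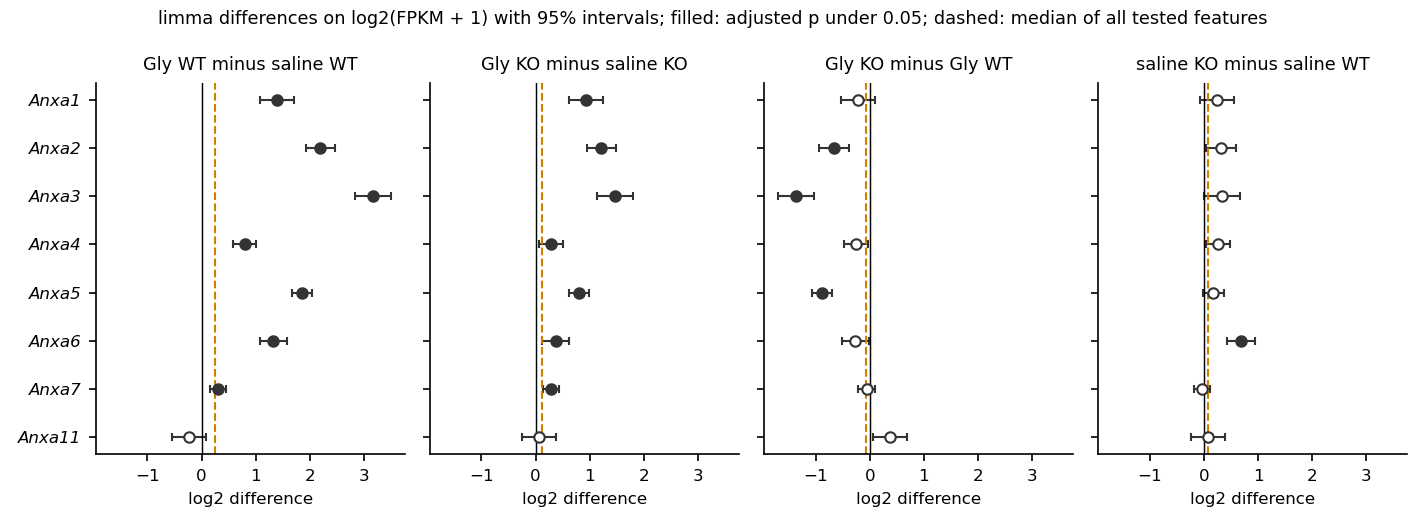
Log2 differences (x axes, log2(FPKM + 1) scale) of the 8 annexins in 4 comparisons, as limma estimates with 95% intervals, filled where the adjusted p is under 0.05, with the dashed line at the median of all tested features. Anxa3, Anxa2 and Anxa5 lie far right of the dashed line in both Gly against saline panels and left of it for Gly KO minus Gly WT, and Anxa6 is the filled point of the saline panel.

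The interaction asked whether the response to Gly differed between genotypes. The response was called smaller in the knockout for 5 of 8 genes, where 20.3% of features were called lower and 6.28% higher. The knockout response minus the wild-type response was -1.70 ± 0.22 log2 units for Anxa3, -1.05 ± 0.13 for Anxa5, -0.98 ± 0.18 for Anxa2, -0.96 ± 0.17 for Anxa6 and -0.51 ± 0.15 for Anxa4 (SE). Their adjusted p values were 2.77e-05, 1.48e-05, 0.000569, 0.000407 and 0.0138. Anxa1 (-0.46, adjusted p = 0.108), Anxa7 (-0.02, adjusted p = 0.902) and Anxa11 (0.30, adjusted p = 0.318) did not pass, although Anxa1 did without Gly WT library 5 (-0.60, adjusted p = 0.0136), and Anxa7 was 0.14 after median-ratio scaling and 0.045 after quantile normalization. No interaction of an annexin was called with saline KO library 4 alone, where the differences were -1.22 for Anxa3 (adjusted p = 0.162), -0.86 for Anxa5 (0.114), -0.51 for Anxa2 (0.476), -0.30 for Anxa6 (0.636), -0.092 for Anxa4 (0.907), -0.19 for Anxa1 (0.879), -0.15 for Anxa7 (0.775) and 0.40 for Anxa11 (0.717). In that limma fit 2 of the 8, Anxa3 and Anxa5, had an unadjusted p under 0.05, and 10 features of all were called, against 3457 with all libraries. Of all features, 818 were called higher and 2639 lower as deposited. With median-ratio scaling the split was 1369 higher and 1468 lower, and with quantile normalization 1459 higher and 1638 lower.

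Under saline, Anxa6 was the 1 annexin called between genotypes, where 6.92% of features were called higher and 3.67% lower. It averaged 27.8 ± 5.41 FPKM in saline KO and 16.6 ± 0.976 FPKM in saline WT (SD, n = 6 each), a difference of 0.69 ± 0.12 log2 units (SE, adjusted p = 0.000726) and the 189th highest of 13020. The saline KO group was not uniform. Libraries 1, 2, 3, 5 and 6, whose Y-linked transcripts were at or near 0, held between 28.3 and 31.1 FPKM of Anxa6. Library 4 held 16.9 FPKM, inside the saline WT range of 15.5 to 18.3 FPKM. With library 4 alone as saline KO the Anxa6 difference was 0.03 (adjusted p = 1.00). In the same 5 libraries Anxa2 lay between 31.3 and 40.1 FPKM, Anxa3 between 5.59 and 7.46 FPKM and Anxa4 between 37.6 and 43.1 FPKM. All 3 ranges lay above the saline WT ranges of 21.0 to 29.7, 4.12 to 4.68 and 26.4 to 32.6 FPKM. Library 4 was below the other 5 for Anxa1 to Anxa6, at 23.5 FPKM for Anxa2, 3.85 FPKM for Anxa3 and 27.4 FPKM for Anxa4.

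Without library 4, Anxa2 (0.41, adjusted p = 0.0238) and Anxa4 (0.35, adjusted p = 0.0143) were called higher in saline KO as well. With all 6 libraries Anxa2 differed by 0.32 (adjusted p = 0.125), Anxa3 by 0.33 (0.192), Anxa4 by 0.27 (0.114), Anxa1 by 0.25 (0.323) and Anxa5 by 0.18 (0.237). Anxa7 was at -0.04 (adjusted p = 0.804), and Anxa11 at 0.08 (adjusted p = 0.804) and -0.013 after median-ratio scaling. Of genes known to be higher in male mouse kidney, 7 of 8 were called lower in saline KO than in saline WT, with a median of -4.69 log2 units, and of those known to be higher in female kidney 5 of 6 were called higher. The male-biased genes were also called lower for 7 of 8 in Gly WT than in saline WT, with a median of -2.05, although both groups expressed Y-linked genes. Their part in the annexin values was not tested. Of all features, 901 were called higher and 478 lower as deposited. With median-ratio scaling the split was 686 higher and 704 lower, and with quantile normalization 643 higher and 696 lower.

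**Figure D3:**
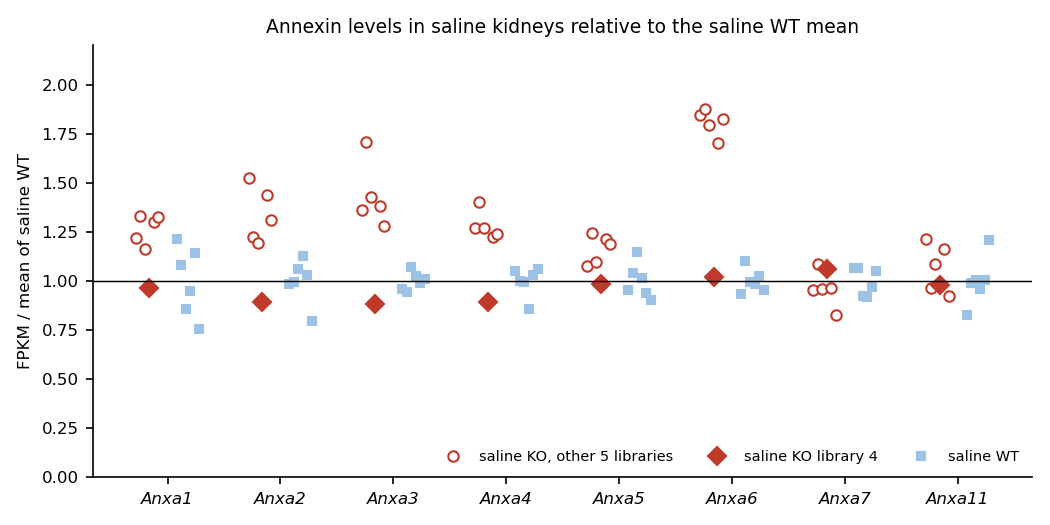
FPKM in saline kidneys divided by the saline WT mean of the same gene (y axis, from 0), with open circles for the 5 saline KO libraries whose Y-linked transcripts were at or near 0, diamonds for saline KO library 4 and squares for saline WT. For Anxa6 the 5 libraries lie well above 1 and library 4 (16.9 FPKM) lies among the saline WT libraries.

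Gly KO kidneys were also set against saline WT, a comparison that leaves out saline KO and shares its libraries with the ones above. Called higher were 7 of 8 genes, where 38.9% of features were called higher and 6.72% lower. The differences were 1.80 log2 units for Anxa3, 1.53 for Anxa2, 1.18 for Anxa1, 1.06 for Anxa6, 0.98 for Anxa5, 0.55 for Anxa4 and 0.25 for Anxa7. For the first 6 of these every Gly KO library exceeded every saline WT library, which held for 28% of features. The Anxa7 call (adjusted p = 0.00807) was lost after both scalings, at 0.0037 and 0.13, and Anxa11 differed by 0.14 (adjusted p = 0.461), by -0.10 after median-ratio scaling and by -0.037 after quantile normalization. Beside these, the same genes differed between Gly WT and saline WT by 3.16 for Anxa3, 2.19 for Anxa2, 1.40 for Anxa1, 1.33 for Anxa6, 1.85 for Anxa5, 0.80 for Anxa4 and 0.31 for Anxa7. Of all features, 5068 were called higher and 875 lower as deposited. With median-ratio scaling the split was 2197 higher and 2121 lower, and with quantile normalization 2159 higher and 2357 lower.

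The order of the annexins by mean FPKM, a level per transcript length, differed between groups. In Gly KO it ran Anxa5, Anxa2, Anxa7, Anxa4, Anxa6, Anxa11, Anxa3, Anxa1, and in Gly WT Anxa5, Anxa2, Anxa7, Anxa4, Anxa3, Anxa6, Anxa11, Anxa1. In saline KO it ran Anxa5, Anxa7, Anxa4, Anxa2, Anxa11, Anxa6, Anxa3, Anxa1, and in saline WT Anxa7, Anxa5, Anxa4, Anxa11, Anxa2, Anxa6, Anxa1, Anxa3. Ranges of neighbours in these orders overlapped, except between Anxa2 and Anxa7 in both Gly groups, between Anxa6 and Anxa3 in saline KO, and between Anxa5 and Anxa4, Anxa2 and Anxa6, and Anxa6 and Anxa1 in saline WT. Anxa5 made up 24.6% of the annexin FPKM in Gly KO, 21.7% in saline KO, 31.2% in Gly WT and 22.3% in saline WT. Anxa7 made up 15.1% in Gly KO, 19.3% in saline KO, 10.9% in Gly WT and 22.9% in saline WT. Within a library the ratio of Anxa3 to Anxa1 FPKM averaged 1.52 ± 0.408 in Gly KO, 0.995 ± 0.132 in saline KO, 3.40 ± 0.726 in Gly WT and 0.939 ± 0.205 in saline WT (SD, n = 6 each). Anxa3 exceeded Anxa1 in every Gly library, with ratios of 1.06 or more in Gly KO and 2.61 or more in Gly WT, whereas the ratio lay on both sides of 1 in each saline group. The ratio of Anxa2 to Anxa7 averaged 1.41 ± 0.158 in Gly KO, 0.743 ± 0.170 in saline KO, 2.16 ± 0.380 in Gly WT and 0.570 ± 0.0963 in saline WT (SD, n = 6 each).

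**Figure D4:**
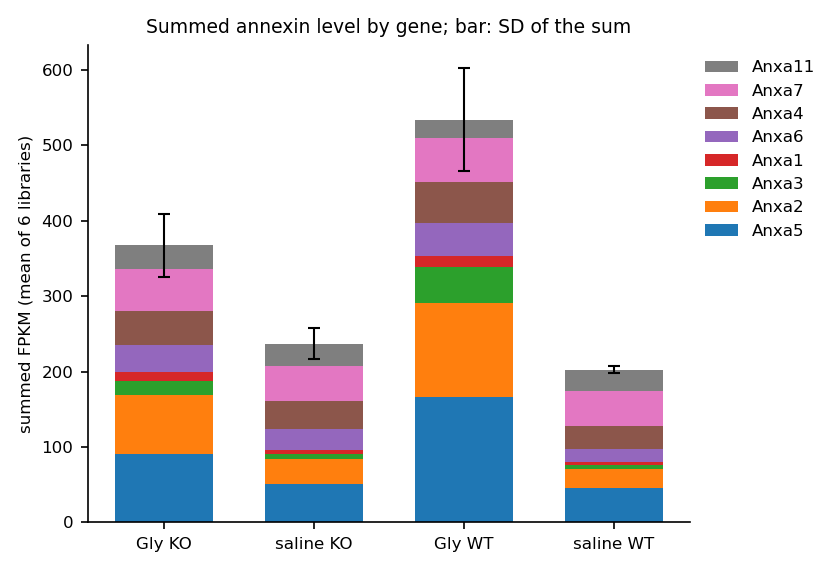
Stacked mean FPKM of the 8 annexins in each group (y axis, from 0), with the bar for the SD of the sum over 6 libraries. The sums are 367 FPKM in Gly KO, 237 FPKM in saline KO, 534 FPKM in Gly WT and 203 FPKM in saline WT, and the Anxa5, Anxa2 and Anxa3 segments are the ones that widen most under Gly.

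Among libraries of 1 group, several annexins were extreme together. Gly KO library 6 was the highest of its group for 6 genes (Anxa1, Anxa2, Anxa3, Anxa4, Anxa5 and Anxa7). Its level of Havcr1, the tubule injury marker KIM-1, was 207 FPKM, the highest in Gly KO. Gly KO library 1, the lowest of its group for Anxa1, Anxa6, Anxa7 and Anxa11, was next with 157 FPKM of Havcr1. Gly WT library 5 was the lowest of its group for Anxa1 to Anxa6, and Gly WT library 1 the highest for Anxa1, Anxa2, Anxa3, Anxa5 and Anxa7 and the lowest for Anxa11. Gly WT library 5 had 398 FPKM of Havcr1, the second highest of its group, so Havcr1 and the annexins did not order the libraries alike. Across all 24 libraries the correlation of log2(FPKM + 1) was 0.993 between Anxa3 and Anxa5 and 0.978 between Anxa2 and Anxa3. For Anxa11 with the other 7 genes it lay between -0.33 and -0.04. These are descriptions, since the 24 points share the 4 groups and each point's library scaling.

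By the same measure over 24 libraries, and leaving out the 8 members themselves, the gene most like Anxa3 was Tmsb10, which encodes an actin monomer binding thymosin (r = 0.989), and Sfn was also among the most alike. Outside the 8 members, Anxa5 was most like Tmsb10 (0.990), the chemokine gene Ccl2 (0.988) and the tropomyosin gene Tpm3 (0.988). Anxa2 was most like Akr1b8 (0.992), Plp2 (0.989) and Sfn (0.986), and Anxa1 like Bcam (0.974), the matrix metalloproteinase gene Mmp14 (0.973) and B4galnt1 (0.969). Anxa4 was most like Nectin2 (0.962), Sept9 and Nde1, and Anxa6 like Olfm1 (0.971), Acsl5 and Adprh. For Anxa7 and Anxa11 the likeness was weaker, at 0.899 with Lars and 0.849 with Arhgef7.

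Of the annexins not among the 8, Anxa8, Anxa9 and Anxa10 were in the table. Anxa10 was listed at 0 in every library. Anxa9 averaged 2.17 ± 0.375 FPKM in Gly KO, 1.48 ± 0.340 in saline KO, 2.34 ± 0.738 in Gly WT and 1.40 ± 0.263 in saline WT (SD, n = 6 each). It was called higher under Gly in knockout (0.36, adjusted p = 0.0336) and in wild type (0.46, adjusted p = 0.00282), and in neither after median-ratio scaling or quantile normalization. The call in knockout was also lost with saline KO library 4 alone. Anxa8 did not exceed 2.02 FPKM in any library, and its difference passed the test in neither genotype (0.07 and adjusted p = 0.786 in knockout, 0.37 and adjusted p = 0.0534 in wild type).

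The S100 and other binding partners of annexins were measured alongside. In knockout 7 of 8 were called higher under Gly, with a median of 0.57 log2 units, and in wild type 8 of 8, with a median of 1.10. Of all features 23.7% were called higher in knockout and 50.2% in wild type, with medians of 0.12 and 0.26 log2 units. After median-ratio scaling the counts were 4 in knockout and 5 in wild type, to be read beside the splits of all features given above. Fewer partners were called in knockout with saline KO library 4 alone. The share of all features in that fit is not reported here, so this loss is not read as particular to the partners. S100a10, the partner of annexin A2, ranged from 89.4 to 137 FPKM (median 114) in Gly KO and from 152 to 393 FPKM (median 190) in Gly WT. It ranged from 56.8 to 77.5 FPKM (median 66.6) in saline KO and from 59.0 to 70.5 FPKM (median 66.0) in saline WT. The groups stood in the same order as those of Anxa2 under Gly, with Gly KO below Gly WT and no overlap (-0.90 ± 0.15 SE, adjusted p = 0.000140). S100a11, a partner of annexin A1, ranged from 219 to 355 FPKM (median 262) in Gly KO and from 439 to 936 FPKM (median 444) in Gly WT. It was lower in every Gly KO library (-0.90 ± 0.14 SE, adjusted p = 8.14e-05). S100a4 was lower as well (-0.93, adjusted p = 0.00323), so 3 of 8 partners were called lower in Gly KO than in Gly WT and none higher, where 21.4% of all features were called lower and 8.37% higher. S100a6, the partner with the largest rise in wild type (3.05, adjusted p = 2.61e-10), differed by -0.64 between the genotypes under Gly (adjusted p = 0.0546). Fpr1 and Fpr2, receptors of annexin A1, lay below the filter with at most 0.328 and 0.736 FPKM, and Fpr3 was listed at 0.

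Genes of plasma membrane repair, in which annexins take part, were called higher under Gly for 5 of 9 tested in knockout, with a median of 0.27 log2 units, and 8 of 9 in wild type, with a median of 0.56. Of all features 23.7% were called higher in knockout (median 0.12 log2 units) and 50.2% in wild type (median 0.26). After median-ratio scaling 3 were higher and 1 lower in knockout, and 5 higher and 1 lower in wild type. The splits of all features after that scaling are given above. Fewer were called higher in knockout with saline KO library 4 alone, where the share of all features is not reported here. Among those with the smallest p in wild type, the ferlin gene Myof differed by 2.38, its relative Dysf by 1.18, the calpain gene Capn2 by 0.89 and the ESCRT gene Chmp4b by 0.84. Dysf (-0.32, adjusted p = 0.0177) and Chmp4b (-0.33, adjusted p = 0.00423) were the 2 of 9 called lower in Gly KO than in Gly WT, a share near the 21.4% of all features. Without Gly WT libraries 1 and 5 this count was 7. The share of all features in that fit is not reported here, so the 7 is not read as particular to these genes. Of 5 tested genes for other proteins to which calcium oxalate crystals attach, 4 were called higher under Gly in wild type. Spp1 (osteopontin) differed by 4.30, the hyaluronan receptor gene Cd44 by 2.84, the nucleolin gene Ncl by 0.75 and Hsp90ab1 by 0.48. In knockout 4 were called higher under Gly and 1 lower, where 23.7% of all features were called higher and 5.72% lower. The same 4 were called lower in Gly KO than in Gly WT, with differences of -0.76, -0.86, -0.30 and -0.41. After quantile normalization 3 of them were. Phospholipase A2 genes, whose products annexin A1 was first described to inhibit, were called higher for 4 and lower for 1 of 6 in wild type under Gly, near the 50.2% and 13.3% of all features, and none was called between the genotypes under Gly.

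**Figure D5:**
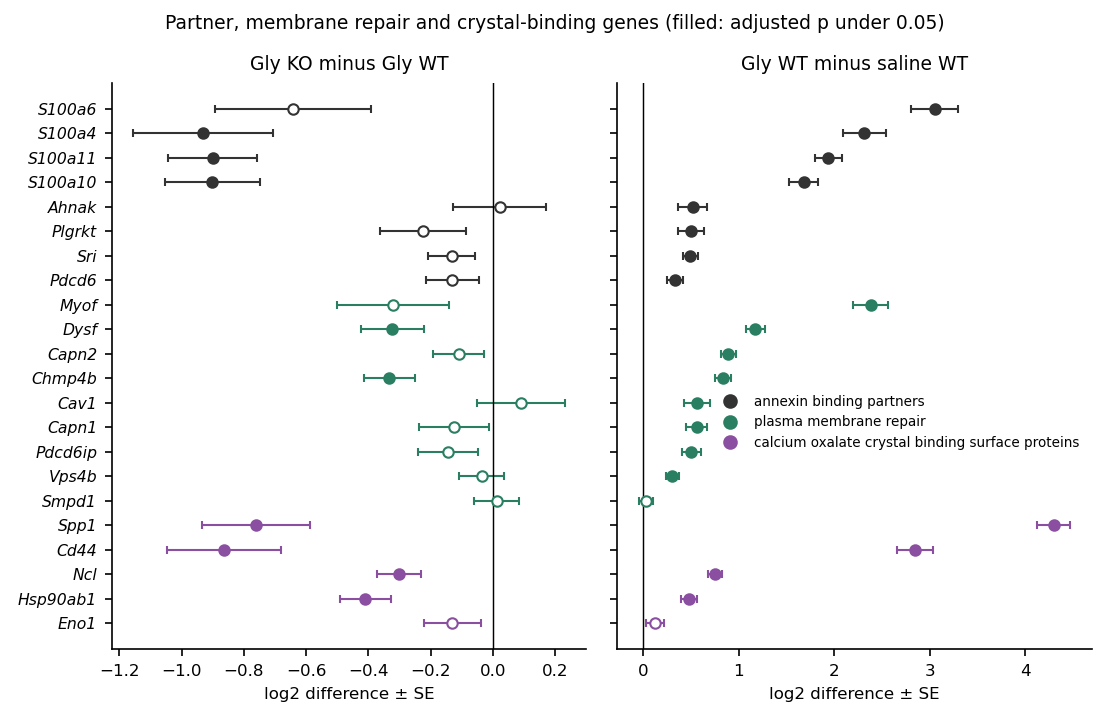
Log2 differences (x axes, ± SE) of tested annexin binding partners, membrane repair genes and genes for other crystal-binding proteins. Gly KO minus Gly WT is on the left and Gly WT minus saline WT on the right. Points are filled where the adjusted p is under 0.05. S100a10, S100a11 and S100a4 lie near -0.90 on the left, while Spp1 reaches 4.30 on the right.

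Markers of cell types differed between the same groups, where 21.4% of all features were called lower and 8.37% higher in Gly KO than in Gly WT, and 50.2% higher and 13.3% lower in Gly WT than in saline WT. Macrophage markers were called lower in Gly KO than in Gly WT for 10 of 10 genes and higher in Gly WT than in saline WT for 10 of 10, with medians of -1.12 and 3.04 log2 units. Their summed level lay between 158 and 467 FPKM in Gly KO, 44.0 and 87.6 FPKM in saline KO, 300.1 and 843 FPKM in Gly WT, and 40.1 and 68.5 FPKM in saline WT, with no marker at 0. Injured tubule markers were called lower in Gly KO than in Gly WT for 5 of 8 and higher in Gly WT than in saline WT for 8 of 8. Their summed level lay between 366 and 723 FPKM in Gly KO, 123 and 175 FPKM in saline KO, 854 and 1184 FPKM in Gly WT, and 123 and 148 FPKM in saline WT. Fibroblast markers were called lower in Gly KO than in Gly WT for 5 of 7 and higher in Gly WT than in saline WT for 7 of 7. Proximal tubule markers were called higher in Gly KO than in Gly WT for 6 of 10 and lower in Gly WT than in saline WT for 7 of 10.

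Other marker sets moved between Gly and saline in both genotypes. In Gly KO against saline KO, 23.7% of all features were called higher and 5.72% lower. Both neutrophil markers that passed the filter, of 10 listed, were called higher under Gly in knockout and in wild type, although not in knockout with saline KO library 4 alone. The 10 summed to between 3.26 and 17.8 FPKM in Gly KO, 0.591 and 1.76 FPKM in saline KO, 3.49 and 14.0 FPKM in Gly WT, and 0.530 and 3.53 FPKM in saline WT, with Ly6g at 0 in all Gly WT and saline WT libraries. Erythroid markers were called lower under Gly for 5 of 5 in each genotype, with medians of -2.74 log2 units in knockout and -2.93 in wild type. These knockout calls were lost with saline KO library 4 alone, where the median was -2.65. Thick limb and distal tubule markers were called lower under Gly for 5 of 6 in knockout and 4 of 6 in wild type. Fewer were called in knockout with saline KO library 4 alone. The share of all features called with library 4 alone is not reported here, so calls lost there are not read as particular to a cell type. Under saline, 6.92% of all features were called higher in saline KO than in saline WT and 3.67% lower. Podocyte markers were called higher there for 4 of 6 and endothelial markers for 3 of 7. In these counts genotype cannot be told apart from the difference in Y-linked transcripts, and library 4 alone cannot decide between them. The part of these cell types in the annexin differences was not tested.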

How the data were processed

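Kidney RNA was sequenced in 24 libraries, 6 in each of 4 groups read from the sample titles. All values come from 1 table of FPKM that the authors deposited. The submitters' processing notes name Bowtie 0.12.2 and the builds mm8 and mm9, without a role for either. How the FPKM values were made, on which annotation, and whether strand was used is not given in the sources used here, so reads of an overlapping antisense gene could not be told apart. The low FPKM values were searched for steps of whole reads. Over features with a mean below 0.05 FPKM, no pair of libraries had more than 2.74% of them at a single ratio (log2 bins of 0.01), so no reads were recovered, the depth is unknown and no counting interval is given. No libraries were identical.

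The 13020 features that reached 1 FPKM in 6 or more libraries were tested with limma 3.58.1 (trend) in R 4.3.3, after log2(FPKM + 1). A single model held a mean for each group over the 24 libraries, and p values were two-sided and Benjamini-Hochberg adjusted over all tested features. The test was tried on simulated data first. The labels do not say that libraries came from separate animals, so p values measure the spread between these libraries. Alternatives were other pseudocounts (0.1 and 0.5), other filters, median-ratio scaling, quantile normalization, the compared groups alone, a replicate block, array weights and leaving out libraries. The 8 members and the gene lists were chosen with earlier results of these data known. All 8 members are described, up to 4 genes of each other list with the smallest p, and for each member the 3 genes averaging at least 5 FPKM with the largest Pearson r, some of which are not reported here. Promoter sequences are RefSeq's, on GRCm38.p6. Other coordinates are not given because the builds differ.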

Additional observations from a re-analysis of the deposited data

Results flagged for a closer look

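Of 32 sets of 6 values, 1 per gene and group, 5 held a library set apart from the other 5. Its gap took more of the range than Dixon's 95% critical value of 0.625 allows. Chance alone gives about 1 in 20 for independent sets of normally spread values. These sets are not independent, because the genes share libraries and correlate across them. The number of sets flagged was therefore not tested against that rate. Anxa3 stood at 30.8 FPKM in Gly KO library 6 and at 71.8 FPKM in Gly WT library 1, each the highest of its group. Anxa4 stood at 27.4 FPKM in saline KO library 4 and at 26.4 FPKM in saline WT library 4, and Anxa6 at 16.9 FPKM in saline KO library 4, each the lowest of its group. Saline KO library 4 is the saline knockout library with Y-linked transcripts.

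The response to Gly differed between knockout and wild type, by the interaction term in limma, for Anxa3 (-1.70), Anxa5 (-1.05), Anxa2 (-0.98), Anxa6 (-0.96) and Anxa4 (-0.51), in log2 units. These 5 contrasts include saline KO, whose libraries differ in Y-linked transcripts, and none of them was called with saline KO library 4 alone.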

How the results depend on the processing

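Of 1192 alternative values for single genes, 1108 kept their direction and their side of the threshold, 31 lost the call, 26 gained one and 27 changed sign. Neither pseudocount changed a call, nor did a filter of 5 FPKM. In Gly KO against saline KO, 4 genes were called after median-ratio scaling and 4 after quantile normalization, against 7. In Gly KO against Gly WT, 5 were called with array weights, against 3. In saline KO against saline WT, where 1 was called, 2 were with the groups alone, 6 with array weights, 2 without Gly WT libraries 1 and 5, and 0 with saline KO library 4 alone (0 at an unadjusted p under 0.05). The interaction gave 0 there, against 5. That fit holds fewer saline KO libraries and its estimates differ as well, and the cause of the lost calls was not tested. With single libraries left out, the counts ranged from 5 to 7 in knockout, 7 to 8 in wild type and 3 to 6 between genotypes under Gly. They ranged from 1 to 3 under saline, 7 to 7 for Gly KO against saline WT and 5 to 6 for the interaction. Array weights let libraries count unequally, and the weight of each library is not reported here. Beyond the splits given above, the shares of all features called in these fits, or with the replicate block, are not reported here. None of these counts is therefore read as particular to annexins.

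Sign changes touched Anxa7 and Anxa11 and, under saline, the genes without a call. For Gly WT against saline WT, Anxa7 was -0.0043 after median-ratio scaling and Anxa11 0.028 without Gly WT libraries 1 and 5. For Gly KO against saline KO, Anxa11 was -0.087 after median-ratio scaling and -0.072 after quantile normalization. Anxa7 in Gly KO against Gly WT was 0.0080 and 0.0065 after the same scalings. With saline KO library 4 alone, the saline difference was -0.028 for Anxa1, -0.15 for Anxa2, -0.15 for Anxa3, -0.16 for Anxa4, -0.018 for Anxa5, 0.088 for Anxa7 and -0.021 for Anxa11. Anxa11 under saline was -0.013 after median-ratio scaling, and in Gly KO against saline WT -0.10 and, after quantile normalization, -0.037. With single libraries left out, Anxa7 under saline ranged from -0.068 to 0.0097 and its interaction from -0.068 to 0.013. That interaction was 0.14 after median-ratio scaling, 0.045 after quantile normalization, 0.10 with array weights and 0.011 without Gly WT libraries 1 and 5.

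Libraries of different groups share replicate numbers. Of 36 same-number pairs, 7 had a correlation of deviations over 0.1 (range -0.37 to 0.30). These values show no general pairing by number and do not exclude one. With the replicate block the counts were 6 in knockout, 7 in wild type, 3 between genotypes under Gly, 1 under saline, 7 for Gly KO against saline WT and 5 for the interaction. The lost call was Anxa4 in knockout (adjusted p = 0.0638), and 3 of 36 matches found a library closest to its own number. FPKM hide the depth, so precision at low values is unknown.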
